A study of Homo sapiens with 2 samples.

Results

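Runs of 6 or more consecutive accessible regions called in hTBLCs and not in primed cells were described across the human genome. Peaks of each ATAC-seq library were merged where they overlapped or touched on chromosomes 1 to 22 and X, and both lists were joined into 336224 regions sorted by position. A region was hTBLC-only when no primed peak overlapped it, and 98291 regions (29.2%) met this. Of these, 3380 regions stood in 493 runs in which at least 6 hTBLC-only regions followed each other on a chromosome without a primed-only or shared region between them. That is 3.44% of the hTBLC-only regions (Wilson 95% interval 3.33 to 3.55). The members were selected on the presence of hTBLC peaks and the absence of primed peaks, so their number is a description and carries no test.

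The 2 libraries came from WIBR3, an established human embryonic stem cell line. One was made from hTBLCs, the cells the study describes as totipotent and obtained through repression of the spliceosome, and the other from primed cells, the conventional culture state of human embryonic stem cells. The labels give both the cell type hESC and name no agent, dose or culture time, so the groups are 1 line with 1 library each and no replicate spread. ATAC-seq marks open DNA by the insertion of sequencing adapters with a transposase. The authors' lists held 299673 hTBLC peaks and 295753 primed peaks, with median summit pileups (reads or fragments stacked at the highest point of a peak) of 17 in hTBLC and 18 in primed. The lowest pileup called was 7 in hTBLC and 6 in primed, and the lowest −log10 p was 2.83 in hTBLC and 2.0 in primed. Promoter windows of the pluripotency genes SOX2 and NANOG held a region in both libraries. Those of ZSCAN4, LEUTX and DUXA, genes active at the human 8-cell stage, held none in either library.

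Accessible chromatin is where nucleosomes are displaced, most often at promoters and enhancers, and neighbouring enhancers can form clusters that act on 1 gene. Long stretches between genes and the bodies of very long genes tend to be compact, late in replication and low in transcription in pluripotent cells. An unbroken series of library-specific regions therefore describes a stretch of chromosome and not a single element. Positions are on hg38, named in the submitters' processing notes, and gene positions are those of RefSeq on GRCh38.p14, which shares its primary coordinates.

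Few of these regions touched a promoter. Of the 3380, 27 (0.799%, 0.550 to 1.16) overlapped the window from 250 bases before to 50 bases after an annotated transcript start, compared with 1.18% (1.11 to 1.25) of the hTBLC-only regions outside runs, 0.631% (0.361 to 1.10) of the regions in primed-only runs and 9.73% (9.58 to 9.88) of the shared regions. The share was thus low in runs of both directions. The windows belonged to 6 protein-coding genes, KCNJ16, GPM6A, GIMAP2, GLYAT, ZBTB7C and ALAS2, and to 21 lncRNA genes. The 250 bases before 4 of these starts are shown, from RefSeq on GRCh38.p14, as places where a run met an annotated transcript start. The starts shown for KCNJ16 and GPM6A lie inside the annotated gene and not at its outer end. KCNJ16 (chr17:70104748-70104997, plus strand) encodes an inwardly rectifying potassium channel subunit. GPM6A (chr4:175891710-175891959, minus strand) encodes a neuronal membrane glycoprotein, and GIMAP2 (chr7:150685456-150685705, plus strand) a GTPase of lymphoid cells. LOC105373150 (chrX:27398993-27399242, minus strand) is a lncRNA gene at the X-chromosomal locus described below. Each is written 5′ to 3′ in its gene's direction, and capitals mark matches on either strand to the TATA box TATAAA, the CCAAT box, the GC box GGGCGG, the GATA site AGATAA, the octamer ATGCAAAT or the AP-1 site TGANTCA. Matches to different motifs were searched separately and may overlap.
KCNJ16: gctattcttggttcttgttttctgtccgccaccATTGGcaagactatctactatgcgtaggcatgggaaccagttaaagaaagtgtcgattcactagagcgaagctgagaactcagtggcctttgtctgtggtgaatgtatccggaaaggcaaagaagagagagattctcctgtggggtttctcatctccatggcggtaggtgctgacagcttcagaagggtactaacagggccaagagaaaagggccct
GPM6A: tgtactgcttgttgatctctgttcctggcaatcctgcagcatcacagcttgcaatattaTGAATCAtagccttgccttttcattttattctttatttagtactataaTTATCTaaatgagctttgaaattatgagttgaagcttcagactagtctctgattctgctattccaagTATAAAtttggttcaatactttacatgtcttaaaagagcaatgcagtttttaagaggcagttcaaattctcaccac
GIMAP2: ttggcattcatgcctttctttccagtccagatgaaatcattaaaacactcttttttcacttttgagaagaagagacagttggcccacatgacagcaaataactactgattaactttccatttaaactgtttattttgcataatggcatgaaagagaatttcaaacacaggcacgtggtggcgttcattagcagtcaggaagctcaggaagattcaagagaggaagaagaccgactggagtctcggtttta
LOC105373150: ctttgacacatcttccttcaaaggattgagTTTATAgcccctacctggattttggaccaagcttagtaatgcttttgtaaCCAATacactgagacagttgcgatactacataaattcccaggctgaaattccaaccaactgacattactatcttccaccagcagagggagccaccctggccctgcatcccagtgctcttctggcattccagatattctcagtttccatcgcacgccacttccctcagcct

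The region at KCNJ16 (chr17:70104694-70105132) had a pileup of 53 (exact Poisson 95% interval 39.7 to 69.3) in hTBLC and no primed peak, and its summit lay 75 bases from this start. It covered all 250 bases shown. The other 6 regions of that run had pileups of 9 to 15, all within the body of KCNJ16, so the promoter stood above its run. The region near GPM6A (chr4:175891915-175892212) had a pileup of 25 (16.2 to 36.9) in hTBLC and its summit 349 bases from the start. It covered the first 45 of the bases shown, and all marked matches of GPM6A lie outside it. At GIMAP2 (chr7:150685312-150685825) the pileup was 16 (9.15 to 26.0), and at LOC105373150 (chrX:27398945-27399217) it was 23 (14.6 to 34.5), again with no primed peak.

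The promoters met by runs were poor in G and C. Over the 28 windows of the 27 genes, the median G and C content of the 250 upstream bases was 44.2%, with a median of 1.5 CG dinucleotides. It was 50% with 4 for the 1200 windows met by hTBLC-only regions outside runs, and 51.2% with 8 for the 13 met by primed-only runs. For the 19861 windows met by shared regions it was 64.8% with 20, and for all 34789 windows 58.0% with 11. A content of 50% or more was found in 6 of the 28 windows (21.4%), compared with 51.1% outside runs, 88.0% at shared regions and 68.1% of all. The GC box GGGCGG was present in 7.14% of run windows and 42.6% of all windows. The TATA box TATAAA was present in 25% and 10.8%, the CCAAT box in 42.9% and 32.0%, AGATAA in 25% and 9.20%, and TGANTCA in 21.4% and 6.55%. Windows met by hTBLC-only regions outside runs had the GC box in 23.2%, TATAAA in 12.7% and the CCAAT box in 28%. They had AGATAA in 12.1% and TGANTCA in 10.7%. ATGCAAAT was present in none of the run windows and in 1.63% of all. With 28 windows these shares rest on few genes, and a match describes letters only. All 250 upstream bases were searched, also where the region covered few of them, as the 6 bases at SMYD3-AS1. Gene type was not matched: 21 of the 27 run genes were lncRNA genes, compared with 580 of 1135 outside runs and 11364 of all 27057.

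hTBLC-only regions stood in long runs more often than primed-only regions did in these lists. The same rule in the other direction gave 280 runs with 1902 regions, 2.11% (2.02 to 2.20) of the 90203 primed-only regions. Primed-only regions were 26.8% of the union and hTBLC-only regions 29.2%. This difference bears on how often long runs form and was not adjusted for. Exactly 6 regions were found in 299 hTBLC-only and 165 primed-only runs, and the 632 hTBLC-only and 420 primed-only runs of 5 regions fell just short of the limit. Runs of 8 or more numbered 91 in hTBLC and 47 in primed. The longest hTBLC-only run had 41 regions and the next 17, 15 and 15, while the longest primed-only runs had 23 and 18. The excess of hTBLC-only runs depended on the threshold: with both lists restricted to a −log10 q of 5 or more there were 89 hTBLC-only and 144 primed-only runs, so the order turned. Of the 493 runs, 42 (8.52%) still overlapped a run at that threshold.

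**Figure D1:**
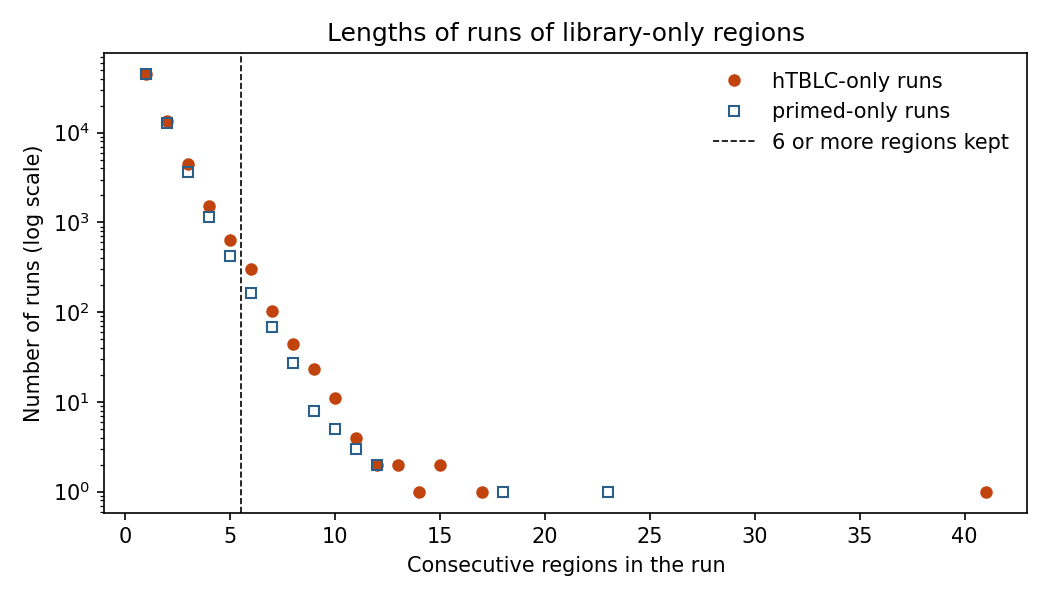
Number of runs (y axis, log scale) by number of consecutive regions in the run (x axis), for hTBLC-only and primed-only regions, with the limit of 6 regions as a dashed line. The 299 hTBLC-only runs of exactly 6 regions stand above the 165 primed-only runs of that length, and the run of 41 regions stands apart.

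The members were weak as single regions. Their median pileup in hTBLC was 11, with quartiles of 9 and 15, compared with a median of 12 in hTBLC-only regions outside runs and 24 in shared regions. A −log10 q of at least 10 was reached by 13.7% (12.6 to 14.9) of them, by 12.2% (11.9 to 12.4) of the hTBLC-only regions outside runs and by 56.6% of shared regions. Still, 299 of the 493 runs held at least 1 region that strong, as did 167 of the 280 primed-only runs. A pileup of 11 lies close to the lowest called, so a primed region just under its own threshold cannot be told apart from a closed one. Widths were also alike, with a median of 261 bp in runs and 257 bp in hTBLC-only regions outside runs.

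The position of the runs relative to genes, which the rule did not use, differed between the classes of region. Of the run regions, 56.5% (54.8 to 58.2) were intergenic, compared with 39.2% (38.9 to 39.6) of hTBLC-only regions outside runs, 19.1% (17.4 to 21.0) of regions in primed-only runs and 33.7% of shared regions. Bodies of protein-coding genes held 27% (25.5 to 28.5) of run regions, 45.3% of hTBLC-only regions outside runs and 71.3% (69.2 to 73.3) of regions in primed-only runs. Within 1 kb of an end of a protein-coding gene lay 1.04%, 2.75% and 2.10%, while the share was 11.2% for shared regions. For 43% of run regions, no protein-coding gene had its midpoint within 250 kb of the summit. The share was 22.1% for hTBLC-only regions outside runs and 9.20% for regions in primed-only runs. Only midpoints were counted, so a region inside a very long gene can be among these. The intervals cover counting error only, and regions of a run share a locus, so they are narrower than independent loci would give.

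This difference between the directions grew with run length. Among regions that stood alone, 36.5% of hTBLC-only and 35.6% of primed-only regions were intergenic. At a run length of 3 the shares were 42.8% in hTBLC and 31.3% in primed, and at 5 they were 48.3% in hTBLC and 23.4% in primed. At 6 they were 50.6% in hTBLC and 20.3% in primed, and at 8 or more 66.8% (63.6 to 69.9) in hTBLC and 14.2% (11.3 to 17.8) in primed. The share in bodies of protein-coding genes moved the other way, with 48.6% of hTBLC-only and 49.2% of primed-only regions that stood alone, and 19.0% (16.5 to 21.7) in hTBLC and 73.2% (68.8 to 77.1) in primed at 8 or more. Median pileups stayed at 11 or 12 for every length in both directions. With both lists at a −log10 q of at least 5, 53.3% of hTBLC run regions and 25.5% of primed run regions were intergenic, so this difference did not turn with the number of runs.

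**Figure D2:**
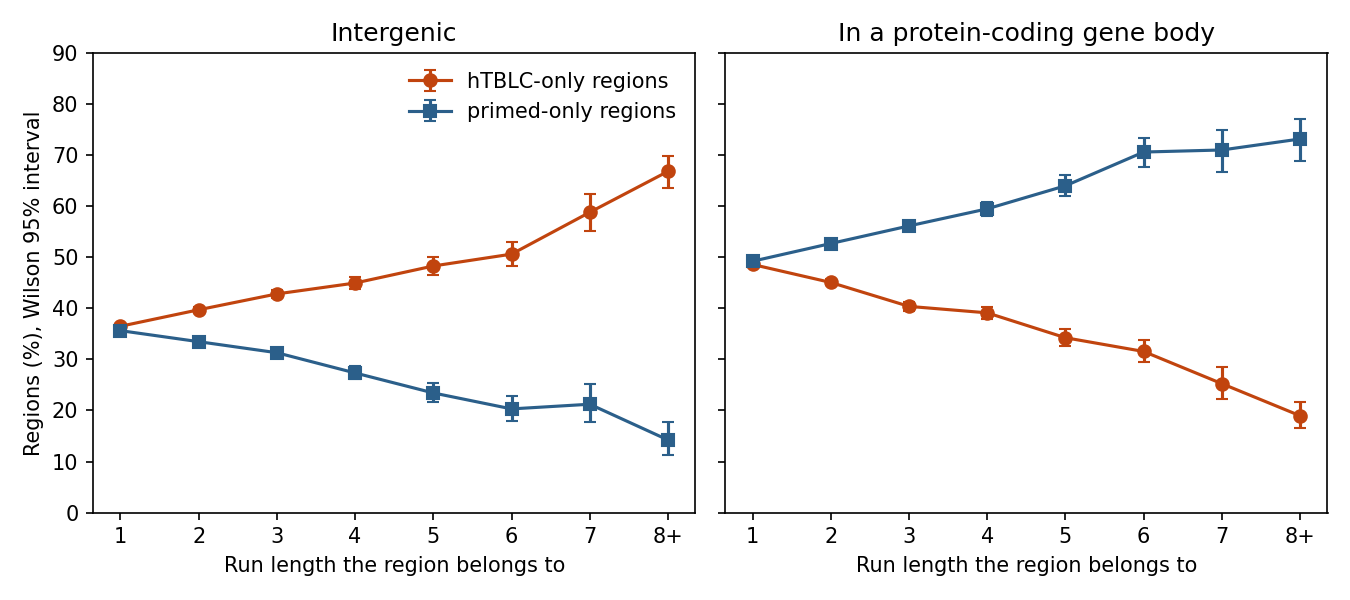
Share of regions in percent (y axis) that are intergenic, and that lie in the body of a protein-coding gene, by length of the run in consecutive regions (x axis), for hTBLC-only and primed-only regions, with Wilson 95% intervals as bars. Both directions start near the same share at length 1, and at 8 or more 66.8% of hTBLC-only and 14.2% of primed-only regions are intergenic.

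The spans repeated this at the level of whole runs. The median span was 42.7 kb in hTBLC-only runs (quartiles 27.4 and 75.7 kb) and 38.1 kb in primed-only runs (26.0 and 60.9 kb), with median gaps between regions of 7.71 and 6.54 kb. No protein-coding gene overlapped 319 hTBLC-only runs (64.7%) and 60 primed-only runs (21.4%), and no annotated gene of any kind overlapped 156 (31.6%) and 23 (8.21%). A single protein-coding gene enclosed 112 hTBLC-only runs (22.7%) and 175 primed-only runs (62.5%). Of the remaining hTBLC-only runs without a protein-coding gene, 129 overlapped a lncRNA gene. At a −log10 q of at least 5, 59.6% of hTBLC-only and 28.5% of primed-only runs held no protein-coding gene.

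Gene density followed. The 493 hTBLC-only runs spanned 44.7 Mb and held 119 midpoints of protein-coding genes, 2.66 genes per Mb (exact Poisson 95% interval 2.21 to 3.19). The primed-only runs spanned 13.7 Mb with 108 midpoints, 7.90 per Mb (6.48 to 9.54), and the chromosomes as a whole had 6.59 per Mb. Flanks as long as the run on each side had 5.86 genes per Mb (5.37 to 6.39) around hTBLC-only runs and 7.32 (6.34 to 8.40) around primed-only runs. Bodies of protein-coding genes covered 14.7% of the hTBLC-only and 64.4% of the primed-only run span, compared with 41.6% of the chromosomes. Much of the hTBLC span came from few runs: 42 runs within 2 Mb of the widest interval without an annotated gene of their chromosome, which on many chromosomes spans the centromere, held 18.7 Mb. The 451 runs elsewhere spanned 26.0 Mb with 2.23 genes per Mb (1.69 to 2.88), 22.4% of it in bodies of protein-coding genes. Of the primed-only runs, 1 lay within 2 Mb of such an interval. Flank length follows run span, so the 42 long-spanning runs also weigh on the flank density, which was not computed without them. Within 250 kb of the summit, run regions had a mean of 1.70 midpoints of protein-coding genes. The mean was 3.15 for hTBLC-only regions outside runs.

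The longest run lay on the short arm of chromosome X, at chrX:27728336-28124105, with 41 regions in 395.8 kb. Their pileups in hTBLC were 7 at the lowest, 12 at the median and 61 at the highest, and the primed list had no peak anywhere in the span. Of the 41, 31 were intergenic, 8 reached a −log10 q of at least 10 and 6 had a pileup of at least 20, and together they covered 3.77% of the span. The strongest region (chrX:28123771-28124105) closed the run with a pileup of 61 (46.7 to 78.4). The next, at chrX:27883484-27883861, had 49 (36.3 to 64.8), and another, at chrX:27840628-27841354, had 39 (27.7 to 53.3). The run overlapped DCAF8L2 and DCAF8L1, retrogene relatives of the ubiquitin ligase receptor gene DCAF8, and MAGEB10, a cancer-testis antigen gene of the MAGE family, normally active in testis and in tumours. MAGEB10 contained 2 of the regions, with a pileup of 10 each, DCAF8L2 contained 1 and DCAF8L1 none. The lncRNA genes LOC105373151 and LOC105373152 contained 4 and 3 regions. The next protein-coding gene to the right, IL1RAPL1, which encodes a synaptic adhesion protein, began 463 kb away.

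A second run of 9 regions (chrX:27336580-27672677, pileups 8 to 31) ended just before it, mostly inside DCAF8L2. A single shared region stood between them, at chrX:27683653-27684317, with a pileup of 24 in hTBLC and 9 in primed. Of the 493 runs, 6 pairs were parted by 1 region, which was shared or primed-only. The joint stretch of 787.5 kb thus held 51 union regions, of which 50 were hTBLC-only. The first shared region to the right of the run had a pileup of 71 in hTBLC and 34 in primed, and further on shared regions went either way, with 42 in hTBLC and 90 in primed at one and 90 in hTBLC and 53 in primed at another. With both lists at a −log10 q of at least 5, the stretch formed 1 run of 24 regions (chrX:27398945-28124105), again the longest of all. Chromosome X contributed 28 of the 493 runs, and without it 465 runs remained.

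**Figure D3:**
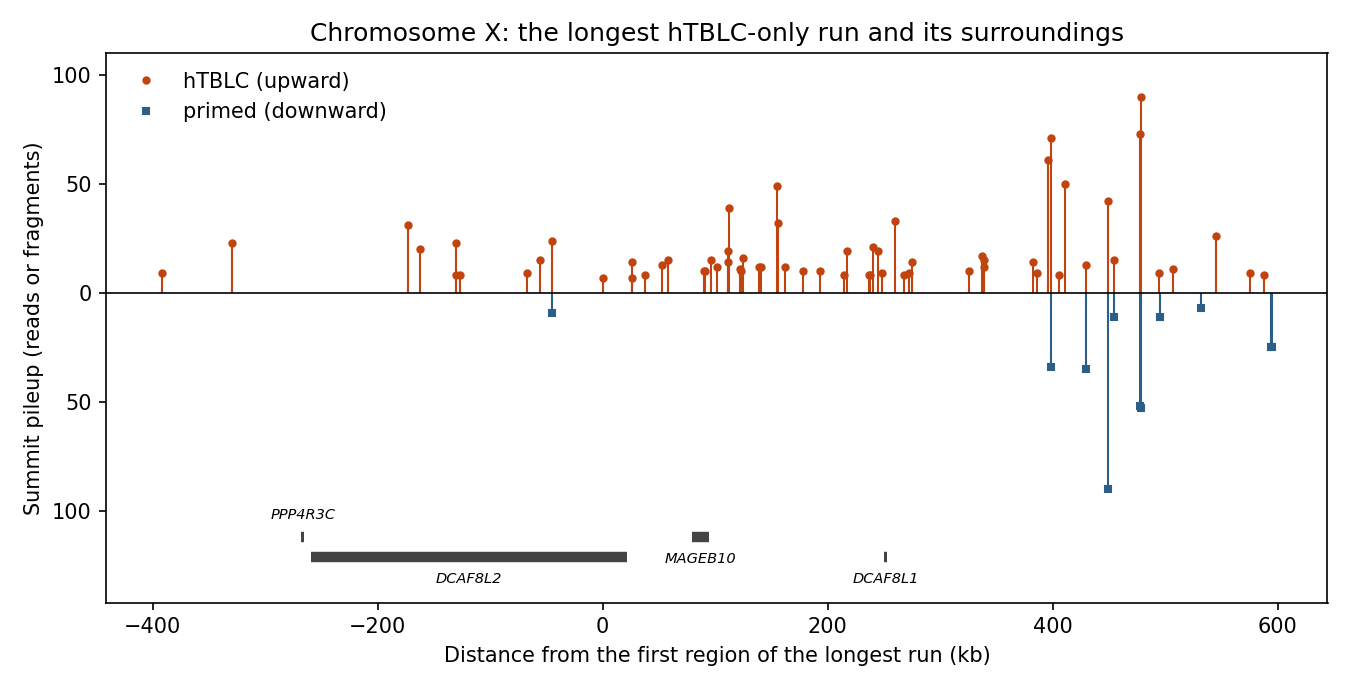
Summit pileup (y axis, reads or fragments) of each region at the X-chromosomal locus by distance in kb from the first region of the longest run (x axis), with hTBLC drawn upward and primed downward and protein-coding genes as bars beneath. From the left edge to the end of the longest run a single primed region appears, with a pileup of 9, and primed regions return to the right of the run.

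The second run, at chr4:156046691-156099151, was the densest of the long ones, with 17 regions in 52.5 kb. All 17 were intergenic, with pileups of 7 at the lowest, 21 at the median and 72 at the highest, and 6 reached a −log10 q of at least 10. CTSO, a cathepsin gene, lay 92.8 kb to the left and PDGFC, which encodes a platelet-derived growth factor, 661 kb to the right. The last 6 regions had pileups of 31, 46, 56, 49, 49 and 72 in hTBLC, and no primed peak. Their fold enrichments over the local background, as the authors give them, were only 3.15 to 5.76, because that background reached 14.9 there, the highest in any run, where the usual floor is 1.96. The first shared regions to the right had pileups of 89, 55 and 24 in hTBLC and 19, 46 and 18 in primed, with local backgrounds of 9.84, 9.56 and 9.26 in hTBLC and 4.50, 4.36 and 4.22 in primed. The local background, estimated by the caller from reads around a summit, thus stood above its floor in both libraries there, and higher in hTBLC. A raised background was rare among the runs: its median was at least 2 times the floor in 8 of 493 and under 1.5 times in 469.

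**Figure D4:**
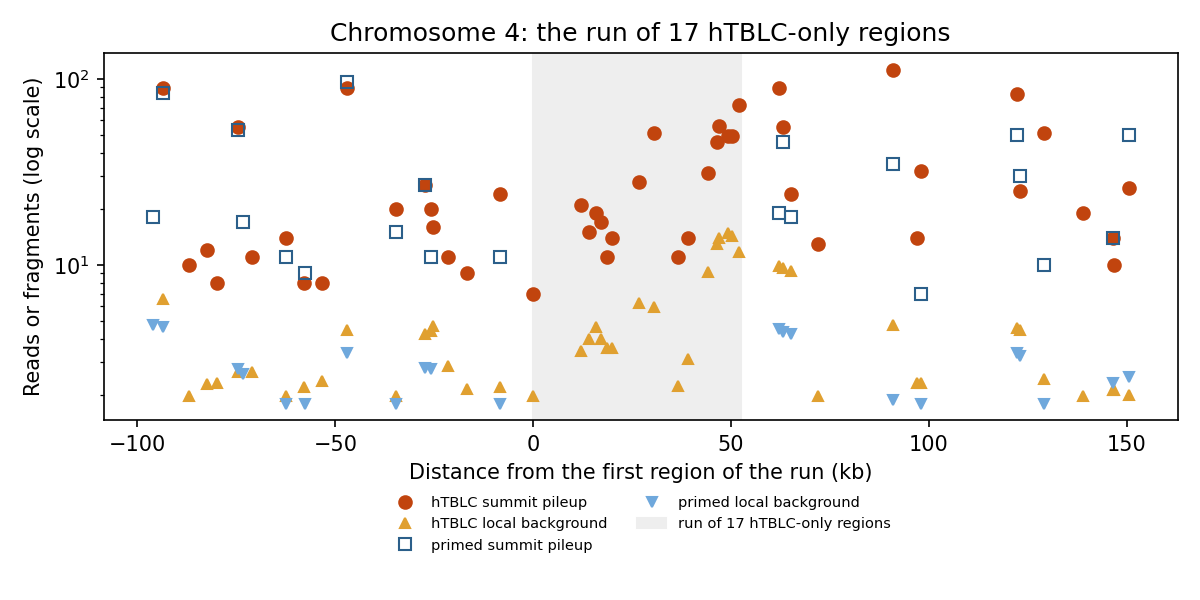
Summit pileup and local background (y axis, log scale, reads or fragments) of each hTBLC and primed region around the run on chromosome 4 by distance in kb from its first region (x axis), with the run shaded. The 17 hTBLC-only regions reach a pileup of 72 at the right end of the shaded run, where the hTBLC background rises to 14.9.

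Of the 15 runs with the most regions, several lay near centromeres. On chromosome 1, runs of 15 (chr1:121743220-122700916), 15 (chr1:124178698-124455205) and 14 regions (chr1:124593775-124735313) lay in the wide interval without protein-coding genes around the centromere. Their regions were weak, with highest pileups of 18, 36 and 12, and reads are hard to place in the repeats of such stretches. A run of 13 regions over 1303 kb (chr3:90192911-91495961, between EPHA3 and PROS1) and one of 11 regions near EMB and PARP8 (chr5:50550363-50607727) also lay within 2 Mb of such intervals.

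Away from these, ZNF804B, a zinc finger gene, had a run of 13 regions (chr7:89312622-89401430, pileups 8 to 32) that began in the gene with 5 regions and went on beyond its end. Between ACTBL2, an actin-like gene, and PLK2, a stress-induced kinase gene, a run of 12 regions (chr5:58072268-58188721) had a median pileup of 17 and a highest of 37. Another 12 regions (chr3:80905020-81145261, pileups 7 to 36) lay between ROBO1, an axon guidance receptor gene, and GBE1, the glycogen branching enzyme gene. A run of 11 regions (chr3:102374453-102442760, highest pileup 19) reached into ZPLD1, a zona pellucida domain gene. The GIMAP gene cluster, whose GTPases act in lymphocyte survival, held 11 regions (chr7:150615423-150723020, pileups 8 to 17) over GIMAP6, GIMAP2 and GIMAP1. Runs of 10 regions lay between TRAM1L1 and NDST3 (chr4:117726067-117771023, pileups 7 to 16) and between C3orf38 and CSNK2A2IP (chr3:88225255-88282810).

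That run near C3orf38 carried 1 strong region among weak ones. At chr3:88240006-88240695 the pileup in hTBLC was 84 (67.0 to 104), and the other 9 regions had 8 to 13. The same shape was seen elsewhere. On chromosome 21, within the lncRNA gene MIR99AHG, the host of a microRNA cluster, a run of 8 regions held one of 72 (56.3 to 90.7) at chr21:16419140-16419700 and others of 10 to 21. On chromosome 7, 378 kb from DPP6, which encodes a potassium channel partner, a run of 8 regions held one of 59 (44.9 to 76.1) at chr7:153369982-153370480. By fold enrichment, the strongest region in any run (chr9:25742164-25742661, 64.0 kb from TUSC1) had a pileup of 105 (85.9 to 127) and opened a run whose other 5 regions had 8 to 26.

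In other runs the median pileup itself was high. The highest median pileup of any run, 26.5, belonged to 6 regions in 19.8 kb at chr2:16083567-16103407, which began in the lncRNA gene GACAT3, 137 kb from MYCN, the proto-oncogene of the MYC family. The pileups were 33, 132, 13, 20, 11 and 53 in hTBLC, with no primed peak. Its second region (chr2:16084074-16084844) had 132 (110 to 157), the highest pileup of any run region. The median local background of this run, 5.99, was also the highest, 3.06 times the floor. GREB1L, a developmental gene of the kidney, had 7 regions (chr18:21266383-21297973) with a median of 22 and pileups of 9 to 41. That run lay within 2 Mb of the widest gene-free interval of its chromosome. Runs within the integrin genes ITGA1 and ITGA9, of 6 and 7 regions, had medians of 20.5 and 20. These runs too were mixed: a −log10 q of at least 10 was reached by 2 of the 6 regions near MYCN, 3 of 7 in GREB1L, 3 of 6 in ITGA1 and 1 of 7 in ITGA9.

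Protein-coding genes overlapped by runs numbered 252, 1.26% of 19970, and 177 of them contained a run region. Primed-only runs also overlapped 252 genes, in fewer and shorter runs. The genes in hTBLC-only runs were long, with a median of 101 kb compared with 24.2 kb for all genes, and 41 of them (16.3%) were 500 kb or longer compared with 1.57% of all genes. The genes with the most run regions were ATP8A1, which encodes a phospholipid flippase, KIAA1217 and NCKAP5, each with 2 runs of 6 regions and so 12 regions. SOX6, a transcription factor gene of cartilage, red cell and neuronal development, contained all 10 regions of its run (chr11:16410552-16573282), with pileups of 7 to 19. RIMS1, which encodes a scaffold of the presynaptic active zone, contained 9. Those with 8 included the adhesion genes CADM2, CDH9, CTNNA3 and NEGR1, the neuregulin gene NRG3, the sodium-calcium exchanger gene SLC8A1, the phospholipase gene PLCB4 and MLLT3, a gene of transcription elongation. Gene length was not adjusted for. Lengths of genes in primed-only runs were not measured, so great length is not shown to be particular to hTBLC-only runs. A single protein-coding gene enclosed 62.5% of primed-only runs and 22.7% of hTBLC-only runs.

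Gene lists were read against that background of 1.26%, as counts only. Of 97 cancer-testis antigen genes, 5 (5.15%) overlapped an hTBLC-only run and 0 a primed-only run. They lay in 3 runs on chromosome X: MAGEB10 in the longest, MAGEA11 and MAGEA9 in one of 9 regions (chrX:149697353-149809373), and PAGE2 and PAGE2B in one of 8 (chrX:55031137-55143790). Run regions fell within MAGEA11 (3), PAGE2B (3) and MAGEB10 (2), and none within MAGEA9 or PAGE2. MAGEA9, PAGE2 and PAGE2B have near-identical copies, so reads there may belong to a copy. Of 392 olfactory receptor genes, 57 (14.5%) overlapped 5 hTBLC-only runs and 0 a primed-only run. Only 12 of them were in runs away from the widest gene-free intervals and 4 contained a run region, namely OR1J2 (2), OR1B1, OR1L8 and OR8J1. The run over 19 such genes at chr11:56083087-56561569 had 11 regions in 478 kb with pileups of 7 to 42, of which 9 were intergenic. This run, which includes OR8J1, also lay within 2 Mb of the widest gene-free interval of its chromosome.

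Adhesion and guidance genes of neurons appeared in both directions. Of 49 synaptic and neuronal adhesion genes, 5 overlapped hTBLC-only runs (CADM2, NEGR1, NRXN3, ADGRB3 and CNTNAP2, with 6 to 8 regions each) and 4 overlapped primed-only runs. Of 88 cadherin and protocadherin genes, 4 overlapped hTBLC-only runs (CDH9, CDH12, CDH18 and CDH4) and 8 overlapped primed-only runs, all 8 of the PCDHB cluster. Of 73 axon guidance genes, DCC and SEMA3C overlapped hTBLC-only runs, and 1 overlapped a primed-only run. Of 18 ionotropic glutamate receptor genes, 0 overlapped hTBLC-only runs and 2 primed-only runs. Of 509 ZNF genes, 3 overlapped hTBLC-only runs (ZNF804B, ZNF385D and ZNF608) and 1 a primed-only run. SOX6 was the 1 of 19 SOX genes in an hTBLC-only run. None of 19 core pluripotency genes and none of 20 endoderm genes overlapped an hTBLC-only run, while TERF1 of the pluripotency list overlapped a primed-only run. Of 36 genes of the 8-cell stage, TRIM48 and TRIM51 lay in the span of 1 hTBLC-only run, which stretched its 6 regions over 5234 kb across the chromosome 11 centromere, and neither contained a region.

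Ends of 28 protein-coding genes lay within 1 kb of a run region, and of those with a known strand 10 were 5′ ends and 13 were 3′ ends. By fold enrichment, the first was OR4S1, an olfactory receptor gene, with a pileup of 38 (26.9 to 52.2). It was followed by AQP7B, an aquaporin gene copy, at its 5′ end, CPQ, a carboxypeptidase gene, and YIPF6 at its 3′ end, each with a pileup of 23. OR4S1 and AQP7B lay near centromeres, in sparse runs of 8 regions over 1039 kb and 8 over 5885 kb. Reads can be hard to place in such stretches. MKRN3, an imprinted gene of puberty timing, had a region of 26 (17 to 38.1) before its 5′ end, in a run of 6 regions that also held the microRNA gene MIR4508. The phospholipase gene PLAAT3 (19, 3′ end), GIMAP2 (17 at its 3′ and 16 at its 5′ end), VCF2 (14, 3′ end), the proton pump gene ATP6V1H (15) and the collagenase gene MMP8 (12, 5′ end) completed the 10 of highest fold.

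Some intervals between protein-coding genes held several runs, and hTBLC-only regions were frequent around runs. The 319 runs without a protein-coding gene fell into 246 intervals between such genes, and 54 intervals held 2 or more runs, 127 in all. Such intervals can be wide, so runs that share one need not be close. The one between LINC02798 and H3-7 with 5 runs spanned 22439 kb. The one between PCDH7 and ARAP2 with 3 runs spanned 4859 kb. No such count was made for primed-only runs. The interval between ROBO1 and GBE1 on chromosome 3 held 5 runs with 45 regions, and 82 of its 143 union regions (57.3%) were hTBLC-only and 27 primed-only. Between STXBP6 and NOVA1 on chromosome 14, 3 runs had 23 regions, and 73 of 117 union regions (62.4%) were hTBLC-only and 9 primed-only. Between CTNNA2 and SUCLG1 on chromosome 2 there were 4 runs with 29 regions, and 104 of 230 union regions (45.2%) were hTBLC-only and 60 primed-only. These intervals were named for their many runs, and the run regions are counted in the shares. High shares there follow in part from the rule and are no separate evidence. Around all runs, the union regions in positions 2 to 10 from a run end were hTBLC-only in 39.6%, primed-only in 21.4% and shared in 39.0%, where the union as a whole had 29.2%, 26.8% and 43.9%. Around primed-only runs these shares were 22.8%, 34.9% and 42.4%. The region that ended a run was shared in 656 of 986 cases, with a median pileup of 23 in hTBLC and 18 in primed. The ratio of its pileups, scaled by the relative background level of 1.09, had a median of 1.08 (quartiles 0.747 and 1.58), compared with 0.913 (0.647 and 1.29) for all shared regions.

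**Figure D5:**
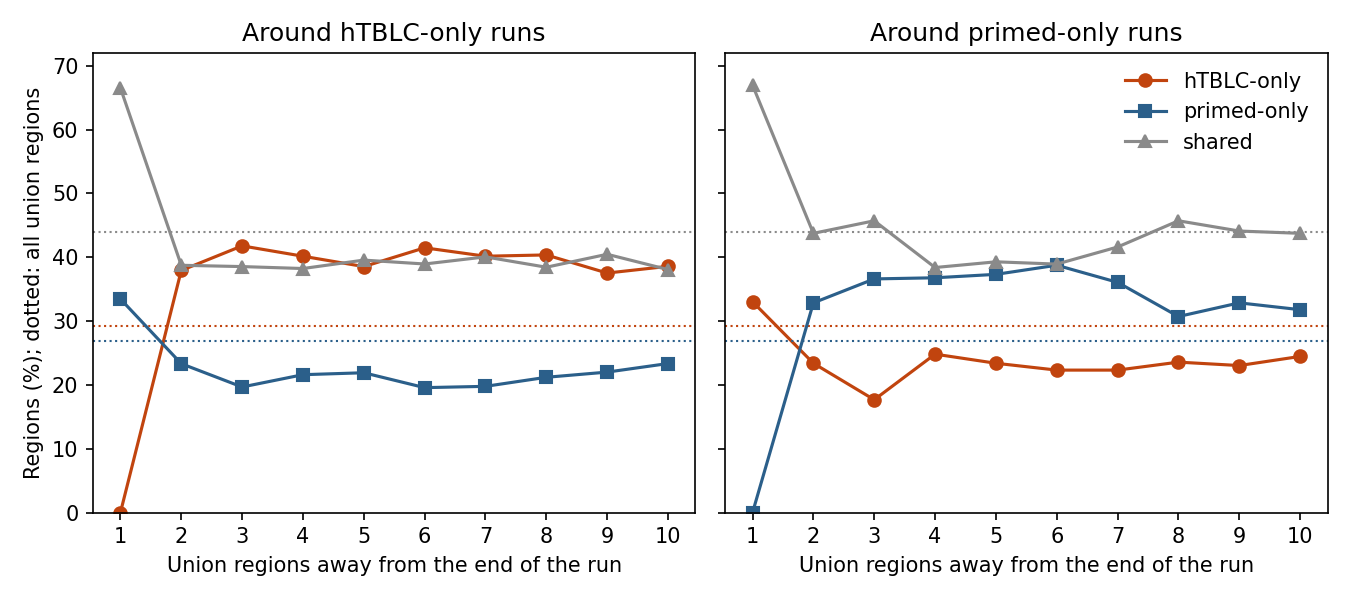
Share of union regions in percent (y axis) that are hTBLC-only, primed-only or shared by position from the end of a run (x axis, in regions), around hTBLC-only and primed-only runs, with the shares in the whole union as dotted lines. Position 1 cannot be of the run's own class by construction, and in positions 2 to 10 around hTBLC-only runs 39.6% are hTBLC-only.

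The chromosomes differed in how much of their hTBLC-only regions stood in runs. The share was highest on chromosome 21 (8.32%, 80 of 962 regions in 11 runs), followed by X (5.30%), 8 (4.53%) and 20 (4.52%). It was lowest on chromosome 22 (0.738%), 17 (1.07%), 15 (1.15%) and 9 (1.31%). Chromosomes 3 and 4 had the most runs, 45 each, where primed-only runs numbered 15 and 7. Chromosome 17, with 14 protein-coding genes per Mb, had 3 hTBLC-only and 9 primed-only runs, and chromosome 4, with 4.04 genes per Mb, had 45 and 7. Not all chromosomes were ordered by gene density. Chromosome 11, with 9.63 genes per Mb, had 31 and 10 runs, and chromosome 20, with 8.35, had 14 and 3. On chromosome 13, with the lowest density of 2.96, 3.71% of the hTBLC-only regions stood in runs.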

How the data were processed

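One hTBLC and 1 primed ATAC-seq library were compared. The submitters' processing notes name Bowtie2, Picard, MACS2 and hg38, with versions and settings not given in the sources used here. For each library the authors deposited a peak list with positions, a fold ratio over local background, a −log10 p-value and a −log10 q-value. The deposited score column was not used. Ranks without a line, 327 in hTBLC and 252 in primed, count as absent, and 16 peaks outside chromosomes 1 to 22 and X were left out of each list. Whole pileups and local backgrounds were solved from fold and −log10 p as a Poisson upper tail, with a tolerance of 0.001, for 99.998% of hTBLC and 99.999% of primed peaks. Total reads were not analysed here, and the relative background level stands for depth.

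A region was shared when it overlapped the other library by at least 1 bp. Its place was taken from the summit: within 1 kb of an end of a protein-coding gene, in the body of any annotated gene, or intergenic. Promoter windows came from RefSeq. Shares carry Wilson and counts exact Poisson 95% intervals, for counting error only. No test was made, since each group has 1 library and the rule used the calls. Genes named are those overlapping the 15 runs with the most regions or nearest to them, the 10 of highest fold at gene ends and up to 5 per list. Other genes, such as the promoters, the strongest regions and the genes with most run regions, were chosen after their values were seen. The members and lists were chosen with earlier results of these data known. Of the runs of high median pileup, some are not reported here. The steps were tested on simulated data. Python 3.11.15, numpy 2.4.6, pandas 2.3.3 and scipy 1.17.1 were used.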

Additional observations from a re-analysis of the deposited data

How the results depend on the processing

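With runs of at least 5 regions there were 1125 hTBLC-only runs with 6540 regions and 700 primed-only runs, with 1.85 protein-coding genes per Mb and 52.5% of the regions intergenic. With at least 8 there were 91 hTBLC-only runs with 865 regions and 47 primed-only runs, and 66.8% of the regions were intergenic. With both lists at a −log10 q of at least 5 there were 89 hTBLC-only runs with 625 regions and 144 primed-only runs, 53.3% of the hTBLC regions were intergenic with a median pileup of 19 in place of 11, and the order of the numbers of runs turned. The higher pileup follows from the stricter threshold, and the cause of the turned order was not tested. Weaker primed peaks were left out at that threshold, so a region counted as hTBLC-only there can overlap one. A common −log10 p floor of 2.83 (538 hTBLC-only and 229 primed-only runs), primed peaks within 500 bp counted as shared (455 and 246), overlap of at least 50% of the shorter region (501 and 287) and chromosome X left out (465 and 265) kept all 6 values tracked here within 1.5 times for a count or the median pileup and within the 95% interval for a share or density. The same held without runs within 2 Mb of the widest gene-free interval (451 and 279), a setting chosen after seeing the data. No paired analysis was possible because each group has 1 library. The calling threshold limits the rest: a pileup under 6 in primed or 7 in hTBLC was never called, and most run regions lie near it.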
